A study of Homo sapiens with 12 samples.

Results

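Cytoplasmic ribosomal protein genes were followed through the polyadenylation and splicing changes of human neurons depleted of TDP-43. The 45 genes, 27 of the large subunit and 18 of the small subunit, were a list of symbols, out of 19959 gene symbols in the RNA-seq gene table. The list was chosen with earlier results of these data known, so its shares and sizes of change against all genes are not independent findings. The knockdown neurons received a short hairpin RNA against TDP-43 (encoded by TARDBP) for 7 days, and the controls a scrambled hairpin for the same time. All came from WA01, a human embryonic stem cell line in wide use, and were driven toward a cortical neuron fate by induced NGN2. Each group had 3 stranded total RNA-seq libraries and 3 libraries of 3' end-seq, an assay that reads transcript ends next to the poly(A) tail. Whether replicates were grown apart is not in the labels, so the p-values may reflect technical spread alone. The values are the authors' own comparisons with nothing given per library, so neither replicate spread nor depth can be given for them. RNA levels of these genes, of TARDBP and of neuronal markers were not analysed here.

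A cytoplasmic ribosome joins a small subunit, which reads the mRNA, to a large subunit, which forms peptide bonds, and each is built of ribosomal RNA and many small proteins. In vertebrates the mRNAs of these proteins begin with a C followed by a run of pyrimidines, the 5' terminal oligopyrimidine (TOP) tract, through which their translation is controlled as a group by the growth kinase mTOR and the binding protein LARP1. Many of these genes carry small nucleolar RNAs (snoRNAs), guides of ribosomal RNA modification, in their introns. Neurons translate part of their mRNA in axons and dendrites, and mRNAs of ribosomal proteins are found there. A gene with more than 1 polyadenylation site can make transcripts that end early (proximal) or late (distal).

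Polyadenylation changes called from RNA-seq included 14 ribosomal protein genes, and all of those listed had more distal use. The authors' deposited table listed 14 of the 45 genes (31.1%), and all 14 were called distal. Of all 19959 gene symbols, 4.17% were listed, and 95.0% of all genes listed were distal, so the common direction was that of the whole list. The 14 were RPL6, RPL7, RPL10A, RPL11, RPL14, RPL22, RPL30, RPL34, RPL37 and RPL38 of the large subunit and RPS12, RPS13, RPS15 and RPS23 of the small subunit. That is 10 of 27 large-subunit genes (37.0%) and 4 of 18 small-subunit genes (22.2%). How many genes could be tested is not known, so the share among tested genes cannot be given.

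RPS15 stood first among them. It encodes a protein of the small subunit head and had a change in its index of 2.06 in the authors' deposited table (adjusted p = 3.98e-105), the 24th largest of 841 genes and the third smallest p. RPL11, whose protein also binds the p53 regulator MDM2 together with RPL5 and 5S RNA, had a change of 1.47 in the authors' deposited table (adjusted p = 5.57e-11). RPL5 itself was not listed in any of the tables. RPL10A at 1.37 (adjusted p = 6.92e-12) and RPL7 at 1.36 (adjusted p = 7.29e-13) came next in the authors' deposited table. RPL6 at 1.28 and RPL30 at 1.27 followed in the authors' deposited table, with adjusted p = 0.00661 and 3.42e-09.

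In the middle of the range, RPL14, RPL37 and RPS23 had smaller adjusted p-values than RPL38. RPL14 had a change of 1.25 with an adjusted p of 3.35e-52 in the authors' deposited table, and RPL37 a change of 0.992 with an adjusted p of 2.20e-49. RPL38, which in mice is needed for the translation of certain Hox mRNAs, had a change of 1.01 in the authors' deposited table (adjusted p = 5.88e-12). RPS23, a protein of the decoding centre, had a change of 0.899 in the authors' deposited table and an adjusted p of 5.94e-59. The changes did not follow the p-values in order: RPS23 ranked 319th by change and 7th by p among the 841 genes.

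The lowest changes were those of RPS13 at 0.879, RPS12 at 0.762, RPL22 at 0.732 and RPL34 at 0.582 in the authors' deposited table (adjusted p = 4.10e-05, 6.40e-13, 3.27e-09 and 0.00567). The median over the 14 genes was 1.13, against 0.765 over all 799 distal genes, and 11 of the 14 lay at or above that median. The 14 come from a list chosen with earlier results of these data known, so this difference is not an independent finding. The scale of the index is not stated, so these values rank genes within the table and are not shares of transcripts. RefSeq names 5 to 61 pseudogenes of each of the 14 genes by its symbol (median 14.5), with 61 for RPL7 and 36 for RPL34. Reads that these copies share with the gene make the assignment uncertain, and their part in the calls was not tested.

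**Figure D1:**
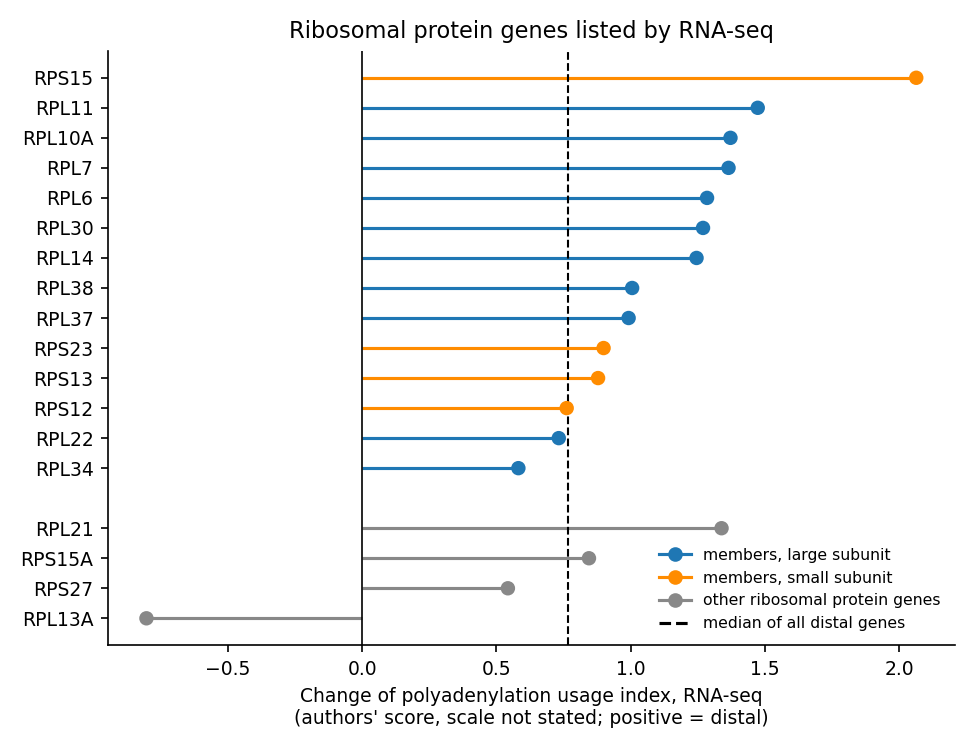
Change of the polyadenylation usage index from RNA-seq (x axis, the authors' score, positive meaning distal) for each listed ribosomal protein gene (y axis), with 1 point per gene and a dashed line at the median of all 799 distal genes. The 14 members run from 0.582 for RPL34 to 2.06 for RPS15, and among 4 other ribosomal protein genes RPL13A is the one below 0.

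From 3' end-seq 3 of the 45 genes were called, each ending farther downstream after knockdown. These were 6.67% of the members in the authors' deposited table. RPL14, RPL22 and RPS23 were all called longer. Of all 19959 gene symbols, 9.83% were listed, and 84.7% of all listed genes were longer. These 3 genes were also among the 14 distal ones, so the shared genes were 3 of 3 from 3' end-seq and 3 of 14 from RNA-seq. Over all genes, 234 were listed in both assays, out of 841 from RNA-seq and 2220 from 3' end-seq. The RNA-seq direction was read from the match with 3' end-seq, so the same direction in both is not independent. The changes of usage index were 0.250 for RPL14, 0.206 for RPL22 and 0.190 for RPS23 in the authors' deposited table, where each adjusted p was given as exactly 0. The median change over all listed genes was 0.191. Oligo(dT) priming inside A-rich stretches can mimic a transcript end in this assay, and its part in these sites was not tested. The other 11 genes called distal from RNA-seq were not listed from 3' end-seq.

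In each of the 3 genes the site gaining use lay at the far end of the RefSeq gene. For RPL14, on the plus strand of chromosome 3 (hg38), use moved to position 40468585, which is 2 nt before the RefSeq end, from position 40462274, a distance of 6311 nt in the authors' deposited table. The falling site lay 4935 nt from the start of a gene of 11249 nt. For RPS23, on chromosome 5 (minus strand), use rose at 82273321, 1 nt before the RefSeq end, and fell at 82276065, 2744 nt upstream of it, in the authors' deposited table. The falling site was 2289 nt into a gene of 5035 nt. For RPL22, on chromosome 1 (minus strand), use rose at 6185032, 12 nt before the end, and fell at 6186219, 1187 nt upstream, in the authors' deposited table. RPL22, whose protein also binds RNA outside the ribosome and represses its own paralog RPL22L1 in mice, is the longest of the 3 at 14576 nt.

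Rising sites at a RefSeq end were common. Among 1782 genes called longer that matched a RefSeq gene, the rising site was within 20 nt of the RefSeq end in 1173 (65.8%) and the falling site in 52 (2.92%). The median distance between the 2 sites was 2520 nt over these genes, against 1187, 2744 and 6311 nt in the 3 ribosomal protein genes. Distances are along the genome and include any intron. None of the 45 genes had a cryptic polyadenylation site, one little used in control neurons, among the 457 sites of the authors' deposited table, against 1.98% of all gene symbols.

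**Figure D2:**
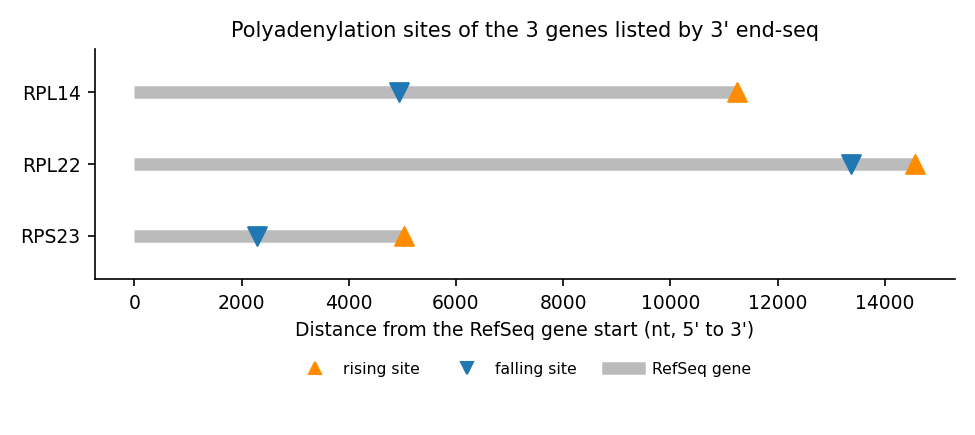
Position of the site gaining use (triangle pointing up) and the site losing use (triangle pointing down) in the knockdown along the RefSeq gene (grey bar), in nt from its start, for the 3 genes listed from 3' end-seq. The rising sites lie 1 to 12 nt before the RefSeq end, and the falling sites 1187 to 6311 nt upstream of them.

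The starts of most of these genes show a common sequence feature. RefSeq (GRCh38.p14) gives promoter entries for 37 of the 45 genes. The search asked whether an annotated start is a C that opens an unbroken run of at least 5 C or T bases on the gene's strand. Of the 37 genes, 26 had such a run (70.3%), against 5.14% of all 27305 genes with an entry. Of the genes listed as distal that have an entry it was 8 of 11, and of those not listed 18 of 26 (69.2%); the difference was not tested. Below are 30 bases around the annotated start, 10 before it and 20 from it, 5' to 3', with the run from the start in capitals. They are shown for the 3 genes called in both assays, for RPS12, which was listed for polyadenylation and splicing, for RPL11 and for RPS15, which had the largest change.
RPL14, chr3:40457329-40457358, plus strand: ggtcttcttcCTTCTCgcctaacgccgcca
RPL22, chr1:6199576-6199605, minus strand: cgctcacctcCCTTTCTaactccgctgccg
RPS23, chr5:82278335-82278364, minus strand: cggtgcttctCTCTTTCgctcaggcccgtg
RPS12, chr6:132814559-132814588, plus strand: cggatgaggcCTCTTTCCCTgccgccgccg
RPL11, chr1:23691796-23691825, plus strand: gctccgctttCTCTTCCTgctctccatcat
RPS15, chr19:1438386-1438415, plus strand: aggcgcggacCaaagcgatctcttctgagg
The runs were 6, 7, 7, 10 and 8 bases long in the first 5 genes, while the annotated start of RPS15 opens no such run. RPL11 has 2 entries, and the start shown, at 23691806, is not its RefSeq gene start at 23691779. A match describes the letters at the annotated start only, and a start annotated a few bases away would be missed.

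Splicing changes were listed for 13 of the 45 genes and were small. The authors' deposited table held 13 clusters of introns (introns that share splice sites), 1 per gene, in 28.9% of the genes, against 11.8% of all gene symbols with a listed cluster. They were RPLP0, RPLP1, RPL8, RPL13, RPL18, RPL19, RPL22, RPL23 and RPL32 of the large subunit and RPS3, RPS9, RPS12 and RPS27A of the small subunit. The largest change of an intron's share in each cluster was between 0.9 and 8.1 percentage points in the authors' deposited table, with a median of 2.1, against a median of 6.4 over all 2994 clusters. None of the 13 reached 10 points, while 33.0% of all clusters did. Positive values are read as higher in the knockdown. The adjusted p-values of the 13 clusters were between 0.000472 and 0.0442 in the authors' deposited table. At an adjusted p up to 0.01 only RPL32, RPS12, RPLP1 and RPS9 were left, 4 of 45 genes, against 6.12% of all gene symbols. As for polyadenylation, how many genes could be tested is not known, so the share among tested genes cannot be given.

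RPS9, which with RPS2 and RPS3 lines the mRNA entry channel, had the largest change. Its intron from 54200888 to 54201166 on chromosome 19, with an unannotated end, changed by -8.1 points in the authors' deposited table (adjusted p = 0.00383 for the cluster). The annotated intron from 54200888 to 54201160, which ends 6 nt earlier, gained 3.4 points in the authors' deposited table. An intron from 54200961, with an unannotated 5' splice site 73 nt further in, gained 4.0 points in the authors' deposited table, and one from 54200893 gained 0.8 points. The cluster thus lost use of the unannotated 3' splice site.

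RPL13, RPL8 and RPL23 each had a pair of introns that share a 5' splice site and differ in the 3' splice site. In RPL13 the unannotated 3' splice site at 89560946 on chromosome 16, 6 nt past the annotated one at 89560940, gained 5.6 points in the authors' deposited table (adjusted p = 0.0442). In RPL8, whose protein lies near the peptidyl transferase centre, the unannotated site 42 nt past the annotated one changed by -4.8 points in the authors' deposited table (adjusted p = 0.0421). In RPL23 the unannotated site 9 nt past the annotated one changed by -4.7 points in the authors' deposited table (adjusted p = 0.0372). RPL13 thus went the other way from RPL8, RPL23 and RPS9: its unannotated site gained use, and theirs lost it.

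RPL32 had the smallest adjusted p of the 13, 0.000472 in the authors' deposited table. Its annotated intron from 12840242 to 12841494 on the minus strand of chromosome 3 gained 2.3 points in the authors' deposited table, and the annotated intron from 12840341 to 12841494 changed by -1.7 points. The first of these holds the whole of the snoRNA gene SNORA7A and the second does not. Only snoRNA genes wholly within an intron were counted, so a part of SNORA7A may lie in the second. In RPS12 the intron from 132815088 to 132816461 on chromosome 6, which holds SNORD101, gained 1.9 points in the authors' deposited table, and the upstream intron from 132814782 to 132814972 changed by -2.3 points (adjusted p = 0.00174). The junction that skips the exon between them gained 0.5 points in the authors' deposited table. RPL18 likewise gained 1.0 point of a junction that joins annotated sites in a new pair, in the authors' deposited table (adjusted p = 0.0134).

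The stalk proteins RPLP0 and RPLP1, which recruit elongation factors to the large subunit, were both listed. In RPLP1, the annotated intron from 69453020 to 69455170 on chromosome 15 changed by -2.1 points and the annotated intron from 69453721 to 69455170 gained 2.0 points in the authors' deposited table (adjusted p = 0.00178). In RPLP0, an intron with an unannotated 5' splice site 11 nt past the annotated one gained 1.2 points in the authors' deposited table (adjusted p = 0.0163). RPS3 gained 1.8 points of an annotated intron of 16858 nt, and an annotated intron of 745 nt changed by -1.8 points, in the authors' deposited table (adjusted p = 0.0314). RPL19 had changes of 0.9 points or less in the authors' deposited table (adjusted p = 0.0267).

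RPL22 was the one gene of the 45 listed in all 3 tables. Its annotated intron from 6197756 to 6199562 on chromosome 1 changed by -1.8 points, and an intron from the unannotated 5' splice site at 6199451 gained 0.9 points, in the authors' deposited table (adjusted p = 0.0354). Introns reaching position 6208681 started 9086 nt upstream of the RefSeq start of RPL22 and gained at most 0.2 points in the authors' deposited table. The splicing change is thus near the start of the gene and the change in polyadenylation at its end. RPS12 was the other gene listed for polyadenylation and splicing. How many of all gene symbols were in all 3 tables, or in RNA-seq polyadenylation and splicing, was not counted. RPS27A encodes ubiquitin fused to a ribosomal protein. Its annotated 5' splice site gained 1.1 points over an unannotated one 76 nt upstream in the authors' deposited table (adjusted p = 0.0389).

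**Figure D3:**
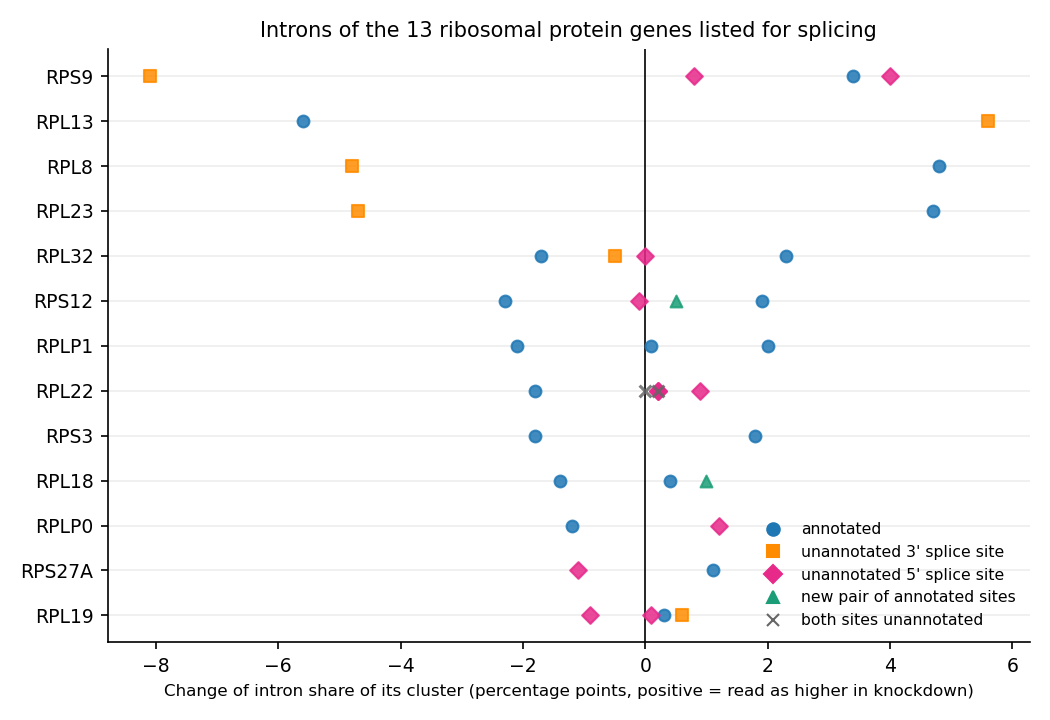
Change of each listed intron's share of its cluster (x axis, percentage points, positive read as higher in the knockdown) for the 13 ribosomal protein genes (y axis, largest change at the top), with 1 point per intron and symbols for the class of its splice sites. The unannotated 3' splice site of RPS9 lies at -8.1 points, and the points of 9 of the 13 genes lie within 2.3 points of 0.

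For 4 of these genes a stretch of 30 bases around a 5' splice site lies wholly within a RefSeq promoter entry. Each sequence gives 12 exon bases and 18 intron bases, 5' to 3', with the first 2 intron bases in capitals. They are shown because the annotated introns and those with an unannotated 3' splice site in RPS9, RPL13 and RPL19 share the site printed, while the pair in RPS27A differs in it.
RPS9, chr19:54200877-54200906, plus strand: tggtttgcttagGTgaggtgcggtggtgtg
RPL13, chr16:89560701-89560730, plus strand: cctgcgcaggagGTgagggagactgggtcc
RPL19, chr17:39200338-39200367, plus strand: cgcagccatgagGTgagggcgagctggtct
RPS27A annotated, chr2:55232697-55232726, plus strand: ccgccatctgcgGTgggtgtctgcacttcg
RPS27A unannotated, chr2:55232621-55232650, plus strand: gtcgcctaagggGTgggtccttcggcggga
All 5 have GT at the intron start. Over the whole splicing table, 140 of 143 annotated 5' splice sites that lie in such an entry read GT there (97.9%).

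Other ribosomal protein genes were listed in both directions. Of 42 other cytoplasmic ribosomal protein genes, paralogs included, the authors' deposited table from RNA-seq listed 4 (9.52%), against 4.17% of all gene symbols. Only 40 of the 42 were among those symbols, while the shares of the 42 and of the 87 below count all 42. RPL21 at 1.34, RPS15A at 0.845 and RPS27 at 0.543 were distal, while RPL13A had a proximal call of -0.803 in the authors' deposited table (adjusted p = 2.68e-61). From 3' end-seq 4 of the 42 were listed (9.52%), against 9.83% of all gene symbols. Among them, RPS15A at 0.150 and RPL7L1 at 0.315 were longer and RPL23A was shorter at -0.276 in the authors' deposited table. Over all 87 ribosomal protein genes 18 (20.7%) were listed from RNA-seq, 7 (8.05%) from 3' end-seq and 19 (21.8%) for splicing. The 45 were chosen with results of these data known. Their shares against those of the other 42 and of all gene symbols are therefore not independent findings.

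Other translation genes on the RNA-seq list were distal with 1 exception. As 95.0% of all genes listed were distal, this common direction was that of the whole list. Of all gene symbols, 4.17% were listed. Of 44 translation factors and other TOP mRNAs, 8 (18.2%) were on it and each was distal, with EEF1A1 at 0.965, EIF3E at 1.32, PABPC1 at 1.12 and EIF3H at 0.847 in the authors' deposited table. Of 82 mitochondrial ribosomal protein genes, 15 (18.3%) were listed and all were distal, with MRPS11 at 1.45 and MRPL36 at 1.26 in the authors' deposited table. Of 72 ribosome assembly factors, 7 (9.72%) were listed, 6 distal and 1 proximal, RSL24D1 at -0.253 in the authors' deposited table, which is named here after its value was seen. UBTF at 0.512, RRP12 at 1.40 and DDX56 at 1.62 were distal in the authors' deposited table. From 3' end-seq the translation factor, mitochondrial and assembly lists had 3, 12 and 11 genes listed (6.82%, 14.6% and 15.3%), against 9.83% of all gene symbols. Those called longer numbered 3, 11 and 8, while 84.7% of all listed genes were longer. RIOK2, a kinase of small-subunit maturation, was longer at 0.328, WDR3 was longer at 0.225 and PNO1 was shorter at -0.267 in the authors' deposited table.

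Listed clusters of introns were found in 13 translation factor genes (29.5%), 11 assembly factor genes (15.3%) and 10 mitochondrial ribosomal protein genes (12.2%). They were also found in 6 of the other 42 ribosomal protein genes (14.3%). Of all gene symbols, 11.8% had a listed cluster. As a fraction of the cluster, the median largest change was 0.021 over the 13 clusters of the 45 ribosomal protein genes and 0.008 over the 6 clusters of the other 42. It was 0.0245 over 16 clusters of translation factors, 0.0715 over 14 of assembly factors and 0.055 over 10 of mitochondrial ribosomal protein genes. The translation factor clusters with the smallest adjusted p were those of EEF1A1 at 2.8 points, EIF4G2 at 1.0, NAP1L1 at 0.9 and EIF3K at 11.1 in the authors' deposited table. Among assembly factors they were those of NPM1 at 1.0 point, UBTF, the ribosomal RNA transcription factor, at 12.1, SDAD1 at 20.2 and TSR1 at 9.3 in the authors' deposited table. Further listed clusters of EEF1A1 and UBTF had largest changes of 9.9 and 11.6 points in the authors' deposited table. Both lists thus held small and large changes among their smallest p-values.

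**Figure D4:**
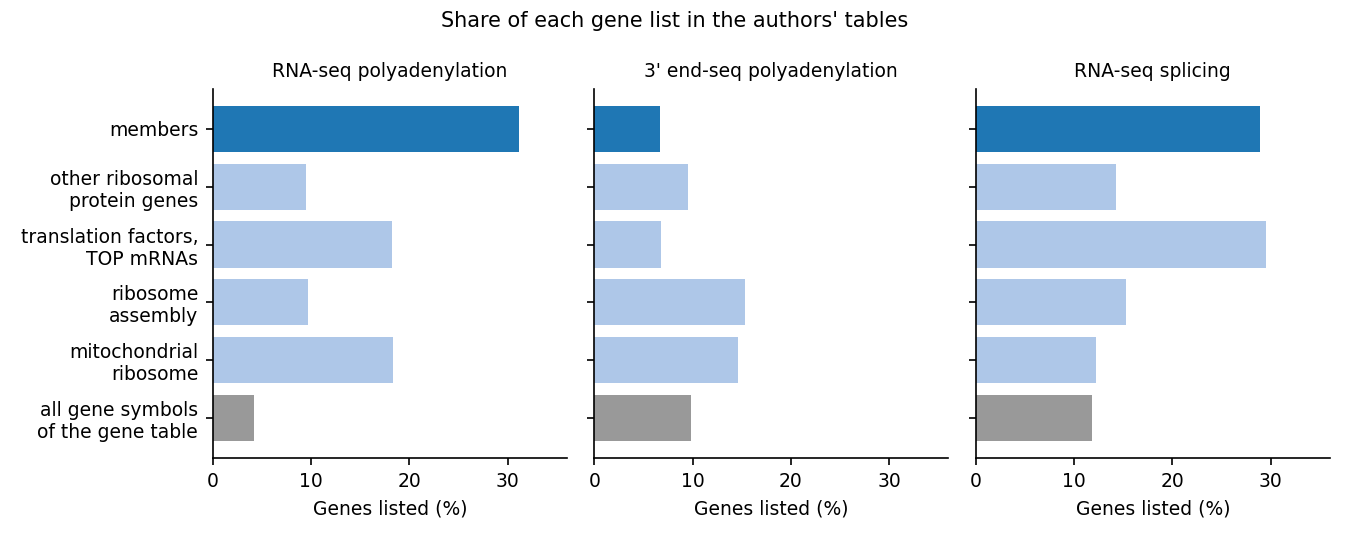
Percent of the genes of each list (y axis) that the authors' tables hold, for RNA-seq polyadenylation, 3' end-seq polyadenylation and splicing, with the share of all 19959 gene symbols as the lowest bar. The 45 ribosomal protein genes stand at 31.1%, 6.67% and 28.9%, against 4.17%, 9.83% and 11.8% of all symbols. The 45 were chosen with earlier results of these data known.

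RefSeq features of the distal genes and the others were set side by side without a test. The median RefSeq gene length was 5046 nt in the 14 distal genes and 4687 nt in the other 31. A snoRNA gene lay within 4 of the 14 (28.6%) and 11 of the 31 (35.5%). The median number of named pseudogenes was 14.5 in the 14 and 13 in the 31. The genes listed in no table numbered 20 of 45, 9 of the large and 11 of the small subunit. The share of all gene symbols listed in no table was not computed, so whether this count is usual cannot be told. They were RPLP2, RPL3, RPL4, RPL5, RPL7A, RPL15, RPL24, RPL27 and RPL35, and RPS2, RPS6, RPS7, RPS14, RPS16, RPS18, RPS19, RPS20, RPS24, RPS25 and RPS28. RPS6, the substrate of S6 kinase, and RPS19, mutated in Diamond-Blackfan anaemia, are among them. Absence from the tables does not show that a gene did not change.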

How the data were processed

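Each assay had 3 knockdown and 3 scrambled libraries. STAR, Salmon, SAMtools, fastp and DESeq2 and the build hg38 are in the submitters' processing notes, with no roles. Which programs called polyadenylation and splicing changes is not given in the sources used. The authors deposited the change of polyadenylation usage index and the change of intron share as a score, with the scale of the index not stated, adjusted p-values as given by the authors, and site usage as a fraction with 1 value per group. The tables list changed items only, with adjusted p-values of 0.05 or less except for cryptic sites, which have none.

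A gene table with 6 columns, each of 1 library, was used for its gene names alone, because no label ties the column numbers to samples. No expression comparison was therefore made, and no group was taken from TARDBP values. Members were matched by symbol; RPL6 stands under another name in the gene table and was matched by ID. The authors' rising and falling sites were read as rising and falling in the knockdown, since 199 cryptic sites used more in the knockdown were rising sites and 0 were falling sites. Intron changes were read as higher in the knockdown when positive, from the STMN2 junction at 0.449. A second STMN2 junction was also positive, at 0.542, but its cluster is marked minus strand and that of the first plus. The marked strand was used to tell 5' from 3' splice sites, so a wrong mark would swap them. Distal was read as more distal use in the knockdown, since 225 of the 234 genes in both polyadenylation tables then match the 3' end-seq direction. Symbols listed by the authors that are not in the gene table (8 from RNA-seq, 258 from 3' end-seq, 65 from splicing) stayed out of the shares of all symbols. Positions of intron ends are the last exon base and the first exon base, checked on the GT of 5' splice sites. The functions that place splice sites and read sequences were tested on simulated data. The value of 1 gene outside the members is not reported here. No significance test was run. Every member that a table lists was named, and of the other lists up to 4 genes with the smallest adjusted p per table, with RSL24D1 added. The members and lists were chosen with earlier results of these data known. Stricter limits on adjusted p (0.01) and on the size of the change were tried. Python 3.11.15, pandas 2.3.3, numpy 2.4.6 and matplotlib 3.10.9 were used.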

Additional observations from a re-analysis of the deposited data

How the results depend on the processing

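The 14 genes listed from RNA-seq stayed 14 at an adjusted p up to 0.01, where 3.03% of all gene symbols were left, and at a change of at least 0.5 (3.01%). The 3 genes from 3' end-seq stayed 3 at an adjusted p up to 0.01 (9.55% of all symbols) and were 2 at a change of at least 0.2 (5.20%), which RPS23 misses. The 13 genes listed for splicing were 4 at an adjusted p up to 0.01 (6.12% of all symbols) and 0 at a largest intron change of at least 0.1 (10 points), where 4.26% of all gene symbols were left. Matching by exact symbols changed no count, no cluster named several genes, and no cryptic site was found in the 45 genes under any limit on usage. No paired analysis was possible because the tables used hold no value per library, and for the same reason no replicate could be left out. The number of genes tested is not given in the tables, and levels per gene were not used here.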

Other observations

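The unannotated 3' splice sites in the listed clusters of the 45 ribosomal protein genes all lay a multiple of 3 nt from an annotated site that shares their 5' splice site. The distances were 6 nt in RPS9 and RPL13, 9 nt in RPL19 and RPL23, 12 nt in RPL32 and 42 nt in RPL8. That is 6 of 6 sites, against 226 of 490 unannotated 3' splice sites within 50 nt of such a site in all listed clusters (46.1%). In the other 42 ribosomal protein genes, 0 of 1 such site was a multiple of 3 nt away. Of the unannotated 5' splice sites within 50 nt, 0 of 2 were a multiple of 3 away in the ribosomal protein genes, against 102 of 270 (37.8%) in all. The pattern was noticed after the values were seen, and whether the sites lie in coding sequence was not tested. Of the 6 sites, 2 gained use and 4 lost it in the authors' deposited table, against 226 and 225 of the 490. The rest of the 490 did neither. Among the 6, the changes in RPL19 and RPL32 were small, at 0.6 and -0.5 points in the authors' deposited table.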
